A study of Mus musculus with 40 samples.

Results

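Local deletions with added bases are listed edits with 1 to 3 other bases in place of bases lost at 1 Cas9 target. They were taken from the array of the DARLIN mouse, a lineage-tracing line in which edits of a transgenic array of Cas9 targets mark cells and their descendants. An event was a member when it replaced lost bases by 1 to 3 inserted bases and touched the cut window of exactly 1 of the 10 targets. Window 1 is bases 19 to 25 of the array, with the cut after base 22, and each further window lies 27 bases on. This rule found 1100 of 42668 listed events (2.58%). They formed 571 distinct events and lay in 961 of 12767 alleles, an allele being 1 distinct edited array. Members were chosen by the position of the loss and the number of inserted bases, so these values are given as a description with no test.

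The series describes 40 liver samples from 5 animals, of which 1 was analysed here, the right inferior lobe of animal YK184 with the stage mark E15.5. The labels name the DARLIN array and the lobe but give no genotype, age, sex or inducing agent, and what the stage mark refers to is not stated there. Array RNA from this lobe was tagged with UMIs (unique molecular identifiers, which count RNA molecules, not cells), and the list held 32342 UMIs. With 1 library there are no replicates, and no stages, lobes or animals were compared. All intervals below are 95% intervals that treat listed events, bases or alleles as independent draws. They cover counting error only, and events of 1 allele, or of alleles from 1 clone, are not independent. The read depth is unknown, because the files list UMIs and no reads.

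Cas9 cuts both DNA strands a few bases before the PAM, the short motif that follows each target. End joining repairs the break and can lose bases on either side of the cut. DARLIN mice carry Cas9 fused to TdT (terminal deoxynucleotidyl transferase), the enzyme that adds bases without a template at the junctions of antibody and T cell receptor genes. A loss with added bases can record both trimming of the ends and addition of new bases at 1 break. The array amplified here was targeted to Col1a1, the gene of a collagen chain, found on chromosome 11 from base 94936224 through base 94953042 (GRCm38.p6, RefSeq).

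Each event is written by its first and last lost base, counted from base 1 of the array, followed by the bases that replaced them, read 5′ to 3′ along the array. Left means at or before the cut and right means after it, on the side of the PAM. The array sequence itself was not used here, so the lost bases are given by position. The inserted bases, in capitals, of the 10 events found in the most alleles come first, since they hold 25% of all entries. They are followed by the 4 next most frequent events among those that stood apart from the other edits of their allele.
51_57: TA
177_187: G
155_167: A
64_84: CCA
25_42: T
156_164: AGC
47_51: GT
23_24: AT
249_265: CAT
25_44: TGT
237_238: A
266_267: A
237_240: G
266_268: G

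Of the members, 561 were lone events, with at least 10 retained bases to the nearest other event of their allele. The other 539 (49.0%, exact interval 46.0 to 52.0%) had fewer than 10 retained bases on 1 side or both and are called neighboured events. Clean local deletions, which lost bases at 1 target with nothing added, had such a neighbour in 10.8% of 3615 events. The members exceeded them by 38.2 percentage points (Newcombe interval 35.1 to 41.4). Local insertions, which added 1 to 3 bases at 1 target with nothing lost, had such a neighbour in 0.437% of 14885 events. An insertion takes up no base, and clean deletions lost fewer bases than members (medians of 4 and 7). The number of bases lost thus bears on these shares, and its part was not tested. Among the neighboured members, 494 of 539 (91.7%) had another deletion with inserted bases as the near event. In 365 (67.7%) that event held 4 or more inserted bases. Whether a neighboured event and its near event are separate edits or pieces of 1 larger change could not be checked without the array sequence. Values are given below for lone and neighboured events. Targets lie 27 bases apart, so a long loss leaves fewer retained bases to the next target, and the split itself in part fixes the lengths lost and the net changes of its 2 sets. Those values are given as a description.

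Lone events were short edits at the cut. They lost a median of 3 bases (order-statistic interval 2 to 3, n = 561), and 342 of them (61.0%) lost 1 to 3 bases. A base beside the cut was lost in 515 lone events (91.8%, exact interval 89.2 to 93.9%). Neighboured events lost a median of 11 bases (11 to 13, n = 539), only 40 of them (7.42%) lost 1 to 3 bases, and 388 (72.0%) lost a base beside the cut. Over all members the median was 7 bases (6 to 7), with a range of 1 to 46.

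The side of the loss differed between lone and neighboured events, though the split by retained bases bears on this too. Over all members, losses on both sides had a median of 11 bases, against 2 on the left alone and 5 on the right alone. Of lone events, 270 (48.1%) lost bases on the right alone, 171 (30.5%) on the left alone and 120 (21.4%) on both sides. The commonest lone loss was the 2 bases directly right of the cut, seen in 98 events at 9 of the 10 sites. The 2 bases directly left of it were lost in 49 lone events, the 1 base directly right in 53 and the 1 base directly left in 28. These 4 losses made up 40.6% of lone events (exact interval 36.5 to 44.8%). Counting also losses of 1 or 2 bases on 1 side that left the base beside the cut in place, the share was 46.2% (42.0 to 50.4%). Neighboured events most often lost bases on both sides, in 272 of 539 (50.5%). Some losses had 0 lone events: 8 bases left with 3 right were lost in 46 events, all at 1 site, and 18 bases on the right alone in 32 events at 3 sites.

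Against clean deletions, the difference in sides depended on whether all or only lone events were compared. Over all events, the loss lay on the left alone in 20.6% of members and 15.8% of clean deletions, a difference of 4.87 points (Newcombe interval 2.27 to 7.61). On both sides the difference was 0.616 points (-2.57 to 3.88), which spans 0, and on the right alone it was -5.48 points (-8.81 to -2.12). Among lone events, the loss lay on the left alone in 30.5% of members and in 17.1% of 3226 lone clean deletions, a difference of 13.3 points (Newcombe interval 9.44 to 17.5). It lay on both sides in 21.4% of lone members and in 32.8% of lone clean deletions, a difference of -11.4 points (-15.0 to -7.48). The share lost on the right alone, 48.1% against 50.1%, differed by -1.93 points, with an interval of -6.39 to 2.55 that spans 0. The median loss of lone members and of lone clean deletions was 3 bases for both. Over all events the medians were 7 bases in members and 4 bases (4 to 4) in clean deletions, and this difference came to 0 when both were limited to lone events. It turned to -5 bases when each distinct event was counted once.

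As listed, the number of inserted bases was more even than in other edits. A change of 1 base to 1 other base is listed as a substitution (291 events) and is never a member. How far this lowered the share of members with 1 inserted base was not tested. Over all members, 405 events held 1 inserted base (36.8%, exact interval 34.0 to 39.7%), 396 held 2 (36.0%) and 299 held 3 (27.2%). Local insertions held 1 base in 54.4% and 3 bases in 8.58% of those with 1 to 3 bases. Joins with added bases, deletions across 2 or more targets with 1 to 3 inserted bases, held 1 base in 54.6% and 3 bases in 15.3% of 6577 events. The share with 1 base in members differed by -17.5 points from that in insertions (Newcombe interval -20.5 to -14.5) and by -17.7 points from that in joins (-20.8 to -14.6). Lone members alone held 1 base in 39.8% and 3 bases in 21.4%. Just outside the rule, 294 local events had 4 inserted bases with a median loss of 6 bases, 79.3% neighboured events and 41.4% A or G among their inserted bases. Just inside it, the 299 members with 3 inserted bases had a median loss of 9 bases, 59.9% neighboured events and 50.9% A or G.

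With so few bases added and more lost, most members shortened the array. The net change, inserted minus lost bases, was negative in 844 events (76.7%, exact interval 74.1 to 79.2%), 0 in 102 (9.27%) and positive in 154 (14.0%). Its median was -5 bases over all members and ranged from -44 to 2. Lone events had a median net change of -1 base: 338 were shorter (60.2%), 76 kept the length (13.5%) and 147 were longer (26.2%). Among neighboured events 506 of 539 (93.9%) were shorter and 7 (1.30%) longer. A block replacement of 2 bases by 2 others occurred in 79 events, and of 3 by 3 in 23. No member, 0 of 1100, had 1 base lost and 1 inserted, as the list writes such a change as a substitution (291 events). All 405 members with 1 inserted base were thus net shorter, which bears on the shares above.

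The added bases of lone events were G in 35.7%, A in 29.2%, T in 22.3% and C in 12.9% of 1019 bases. The purines A and G together made up 64.9% (exact interval 61.9 to 67.8%). In neighboured events G was 20.7%, A 28.1%, T 27.5% and C 23.7% of 1075 bases, and purines were 48.7% (45.7 to 51.8%). Lone events thus exceeded neighboured ones by 16.1 points over all insert lengths together (Newcombe interval 11.9 to 20.3). This did not hold for inserts of 1 base, where the difference was -3.65 points and its interval, -13.0 to 5.86, held both signs. For inserts of 2 bases it was 22.9 points (16.1 to 29.4), and for inserts of 3 bases 16.5 points (9.86 to 22.9). TdT is known to add G most readily at antibody gene junctions, but its part in the shares given here was not tested. Over all members purines were 56.6% of 2094 bases (54.4 to 58.7%).

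Over all insert lengths together, purines were rarer in these events than in either other kind of edit with 1 to 3 added bases. Local insertions had 81.1% purines, and the members differed from them by -24.5 points (Newcombe interval -26.7 to -22.4). Joins had 71.9%, a difference of -15.3 points (-17.6 to -13.0). Lone members differed by -16.3 points from all insertions (-19.3 to -13.3) and by -6.99 points from all joins (-10.1 to -3.99). Against lone joins the difference was -10.5 points. With each distinct event counted once in both classes, the differences over all members were -6.09 points to insertions and -5.83 points to joins. With a single added base, lone members had 60.1% purines, insertions 73.8% and joins 74.8%, and T stood at 26.9% of lone members and 13% of insertions. With 2 added bases lone members reached 70.6%, against 84.9% in insertions and 75.7% in joins. With 3 added bases they had 60.8%, insertions 85.6% and joins 63.3%, and the difference to joins, -2.49 points (-7.89 to 2.71), spans 0.

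How an event is listed limits this comparison. The listed substitutions state the unedited base at 40 positions. In 0 of 738 members whose first lost base is among them did the first inserted base equal it, and the same held for the last base in 0 of 455. An added base equal to the base it replaced is thus not seen as such. Directly after the cut the stated base is C at 9 of the 10 sites and A at site 9, so a C added first in a loss that begins there would not be listed at 9 sites. The middle base of 3-base inserts, chosen for this reason after the values had been seen, lies at neither end of the insert. In the 23 members with 3 bases lost and 3 inserted it still stands in place of a lost base. The middle base was a purine in 58.2% of 299 members, 88.2% of insertions and 57.3% of joins. The difference to insertions was -30.0 points (-35.9 to -24.2) and that to joins 0.938 points (-5.48 to 7.20), which spans 0.

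The composition also differed with the side of the loss. In lone events that lost bases only to the right, 73.0% of the added bases were purines (exact interval 68.9 to 76.8%) and C was 7.60%. In those that lost bases only to the left, purines were 58.2% (52.6 to 63.6%) and C 17.3%. Where both sides were trimmed they were 55.1% (47.9 to 62.2%). Read at the junction itself, the first inserted base was a purine in 82.7% of 260 lone events whose loss began directly after the cut. The last inserted base was a purine in 48.1% of 135 lone events whose loss ended directly before it (39.5 to 56.9%). The base stated at the lost position, which is not listed as inserted, bears on both values, and its part in the difference was not tested.

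Lone and neighboured events also differed in which inserts they held. G was inserted alone in 140 events, T in 119, A in 110 and C in 36, each at 8 or 9 sites. Among inserts of 2 bases, GG occurred in 42 lone and 2 neighboured events, GA in 32 lone and 3 neighboured events, and AT in 28 lone and 1 neighboured event. TA had the opposite split, with 9 lone and 84 neighboured events, of which 62 were 51_57delinsTA. CCA was lone in 1 event and neighboured in 41, CAT in 2 and 28, and AGC in 0 and 23. None of the 14885 local insertions was CCA or CAT. In all, 72 of the 84 possible inserts of 1 to 3 bases were seen, among them all 16 of 2 bases and 52 of 64 of 3 bases.

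Most distinct members were seen in 1 allele. Of 571 distinct events, 434 (76.0%) were in 1 allele and 137 (24%, exact interval 20.5 to 27.7%) in 2 or more. Clean local deletions recurred in 53.2% of 568 distinct events and local insertions in 70.7% of 434, but these classes have more entries (3615 and 14885) and so more chances to recur. The 10 most recurrent members, each in 10 to 62 alleles, made up 275 of the 1100 entries (25%). The place of the 10th is shared, as 25_44delinsTGT and 237_238delinsA were both in 10 alleles. Of these 11 events, 23_24delinsAT and 237_238delinsA were lone and the others neighboured in every allele that held them. The list calls alleles distinct when any event differs, so 1 event in many alleles shows neither 1 origin nor several.

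The most recurrent event, 51_57delinsTA at site 2, lost 7 bases to the right of the cut, none of them beside it. Its 62 alleles carried 79 UMIs, with a single UMI in 52 of them. The event before it was 25_43delinsTGTA in 19 alleles and the event after it 64_84delinsCCA in 16. That event, at site 3, lost 13 bases left and 8 right of its cut and occurred in 27 alleles in all, so 16 of its 27 alleles also held 51_57delinsTA. The start at base 64 with an insert that begins CCA was found in 199 deletions with inserted bases, which ended at 51 different positions.

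Members also shared alleles at sites 1, 2, 6 and 7. At site 1, 25_42delinsT stood in 25 alleles, 14 of which also held 47_51delinsGT, an event of site 2 with 22 alleles. At site 7, 177_187delinsG stood in 46 alleles with 52 UMIs, and 12 of these held 155_167delinsA of site 6. That event occurred in 33 alleles with 84 UMIs, the most UMIs of any member. A single allele of 6 events gave 35 of the 84, and in 19 of the 33 alleles the next event was the deletion of bases 176 to 217. In the same way 156_164delinsAGC (23 alleles) was followed by 168_192 with a longer insert in 11, 249_265delinsCAT (12 alleles) was preceded by 181_239delinsTAC in 11, and 25_44delinsTGT was followed by 47_163delinsGTAC in all 10.

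Some of these recurrent neighboured events had many partners besides the commonest: 51_57delinsTA had 26 different events before it and 32 after it, and 177_187delinsG had 29 and 22. Others had few: 25_42delinsT had 6 different events after it, 249_265delinsCAT had 2 before it and 25_44delinsTGT had 1 after it.

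The recurrent lone events stood beside many different events. Alleles are distinct by definition, so different alleles with few events tend to show different neighbours, and these counts are only a description. The median number of events was 5 in alleles with 23_24delinsAT, 4 with 237_238delinsA and 3 with 266_267delinsA, against 6 with 51_57delinsTA. The event 23_24delinsAT, which replaced the 2 bases right of the cut of site 1, stood in 15 alleles with 24 UMIs and was followed by 15 different events. At site 9, 237_238delinsA stood in 10 alleles, with 10 different events before it and 9 after it. At site 10, 266_267delinsA stood in 9 alleles with 16 UMIs and 9 different events before it. Next came 237_240delinsG and 266_268delinsG, each in 7 alleles. These were the 5 lone events in the most alleles, together with 266_270delinsT, lone in 7 of its 8.

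Recurrent losses differed in how many inserts they took. Bases 51 to 57 were lost with added bases in 62 alleles, always with TA, and bases 177 to 187 in 46, always with G. Bases 155 to 167 were lost in 34 alleles, with A in 33. Bases 23 and 24 were lost in 39 alleles with 14 different inserts: AT in 15, GCT in 4, A, ACT and T in 3 each, GAT and GC in 2 each, and 7 others in 1 each. Base 266 alone was lost in 31 alleles with 16 different inserts, led by AG in 6, GG in 5 and GA in 4. Among lone events, 7 intervals were lost in 10 or more alleles, with 4 to 16 different inserts (median 7). Among neighboured events 11 were, with 1 to 5 inserts (median 1). Of all 353 lost intervals, 146 (41.4%) were also listed as a clean deletion.

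The sites differed in how often they carried such an event. The share of alleles with a member is given over those in which the site lay outside any deletion joining targets. That set runs from 737 alleles at site 5 to 7076 at site 10, and the number of events per allele was not adjusted for. The share was highest at site 6, with 105 of 886 alleles (11.9%, exact interval 9.80 to 14.2%), and lowest at site 10, with 171 of 7076 (2.42%, 2.07 to 2.80%). Between them, sites 3, 7 and 5 had 8.58%, 8.31% and 8.01%, site 2 had 6.16%, site 9 had 4.78%, sites 8 and 4 had 4.27% and 4.23%, and site 1 had 3.39%. The intervals of sites 3, 5 and 7 overlapped that of site 6, and those of sites 4, 8 and 9 overlapped each other. For lone events alone the order changed. Site 9 was then highest with 127 of 2973 alleles (4.27%, 3.57 to 5.06%) and site 7 lowest with 12 of 890 (1.35%, 0.699 to 2.34%), while the other 8 sites lay between 1.78% at site 1 and 3.12% at site 5.

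Site 1 held 204 members, 104 of them distinct, the largest number of any site. Losses lay mostly to the right, in 156 events (76.5%), with a median of 7 bases in all and 3 among its 107 lone events. T was 39.5% of its inserted bases, and 153 events shortened the array. Site 2 held 170 members, of which 114 were neighboured and 93 lost a base beside the cut, the lowest share of any site (54.7%). Inserts of 2 bases made up 128 of the 170, and 62 of these were the TA of 51_57. Without neighboured events 56 were left, with 24 of them lost to the left alone.

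Site 3 had 80 members with the longest median loss, 21 bases (interval 10 to 21), and the highest share of C, 40% of 185 bases. The event 64_84delinsCCA was 27 of the 80, and the 21 lone members lost a median of 4 bases with 84.2% purines and 5.26% C. Site 4 had the fewest members, 40, with a median loss of 3 bases and 26 losses to the right alone. Its leading event was 104_106delinsG, in 6 alleles, before 104_105delinsG in 4. Site 5 had 59 members, of which 29 lost bases on both sides and 28 held 2 inserted bases, and its leading events, 129_130delinsTA and 129_146delinsTA, were in 5 alleles each. Longer inserts were commoner there, with 234 of 630 local events (37.1%) being deletions with 4 or more inserted bases.

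At site 6, 81 of 105 members lost bases on both sides, and 84 were neighboured. Members made up 45.9% of its local losses with at most 3 added bases, the others being clean deletions, against 16.2% at site 10. At site 7, 46 of 74 members (62.2%) were 177_187delinsG, the largest share of a single event at any site. The median loss there was 11 bases, 74.3% of events held 1 inserted base, G was 52.8% of inserted bases, and 12 members were lone. Site 8 had 55 members, led by 212_217delinsAC in 9 alleles and 195_209delinsCAT in 8. The first was preceded by 197_207delinsCTG in all 9.

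The last 2 sites had the lowest shares of neighboured events, 10.6% at site 9 and 19.3% at site 10, before 32.5% at site 4. No target follows site 10, and none precedes site 1, where 47.5% were neighboured. The part of a site's place in the array was not tested. At site 9, 127 of 142 members were lone, with a median loss of 2.5 bases over all members, and losses to the left alone were commonest (64 events, 45.1%). C made up 23.9% of its inserted bases, below the 40% of site 3 and the 27.9% of site 6. At site 10, 138 of 171 were lone, the median loss was 3 bases, 90 losses lay to the right alone, and G was 36.0% of inserted bases. At sites 9 and 10, 25.4% and 25.1% of members made the array longer, the highest shares of the 10 sites. Among lone members the shares were 28.3% at site 9, 31.2% at site 10 and 28.6% at site 6. The largest net gain among events in 3 or more alleles was 2 bases, by 238_238delinsTCC at site 9 in 5 alleles with 14 UMIs. The largest net loss was 22 bases, by 22_45delinsCT at site 1 in 3 alleles, tied with 1 other event.

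Purines were rarer in members than in insertions at each of the 10 sites. The difference ran from -8.27 points at site 6 (Newcombe interval -15.8 to -0.957) to -39.1 points at site 3 (-46.5 to -31.4). In lone members it was positive at sites 3 and 6, at 0.243 and 0.608 points, with intervals that span 0, as did that of site 5 (-12.0 points, -27.7 to 1.12). At the other 7 sites lone members were lower, with differences from -8.96 points at site 10 to -34.7 points at site 7, where 12 events carried 19 bases.

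Alleles with a member held more events, and on average fewer UMIs, than the rest. The 961 alleles made up 7.53% of alleles (exact interval 7.08 to 8%) but 1622 UMIs, or 5.02% of UMIs. They held a median of 5 events (4 to 5), against 3 in the 11806 alleles without one. The share of alleles with a member was 0 of 431 with 1 event, which allows up to 0.852%, 2.03% with 2 events, 4.36% with 3, 7.73% with 4, 15.2% with 5 and 29.4% with 6, and it reached 51.2% of 252 alleles with 7 or more. For lone events the shares were 1.86% with 2 events, 7.05% with 5 and 7.54% with 7 or more, and for neighboured events 0.172%, 8.33% and 46.0%. Alleles with more events have more chances to hold any one kind, and this was not adjusted for.

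Of alleles with a member, 678 of 961 (70.6%, exact interval 67.6 to 73.4%) had 1 UMI, against 62.5% of those without (61.6 to 63.4%). Alleles with a neighboured member averaged 1.55 UMIs, those with lone members only 1.80 UMIs, and those without any 2.60 UMIs. Counted by event, 71.3% of member entries (68.5 to 73.9%) and 64.8% of clean deletions (63.2 to 66.3%) lay in alleles of 1 UMI. The medians were 1 UMI per allele in all 3 sets, and the number of events per allele moves with these values (medians of 6, 4 and 3). Its part in them was not tested. Most of these alleles, 843 of 961 (87.7%), held 1 member, while 99 held 2, 17 held 3 and 2 held 4. The most abundant allele with a lone member had 14 UMIs and held 238_241delinsT between a deletion of bases 23 to 223 and an insertion of AGA at site 10.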

How the data were processed

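Per the labels' protocols, liver RNA was reverse transcribed with a UMI primer specific to the array, amplified by nested PCR and run on a NextSeq sequencer. Per the submitters' processing notes the build is mm10. No allele caller or filter is stated (not given in the sources used here), and how a caller places events could change the positions above. The authors deposited 2 text lists in the same order, the events of each allele and its UMIs of 12 bases, with no deposited counts or scores.

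Events were parsed and classed by the window rule, and UMIs counted per allele. Retained bases are unedited bases between neighbouring events. Shares have exact binomial (Clopper-Pearson) intervals, differences of shares Newcombe intervals and medians order-statistic intervals. No p-value was computed, since 1 library gives no replicates. Named events followed a rule: the 10 in the most alleles, the leading one per site, the 5 commonest lost intervals, the most UMIs and the extreme net changes. The leading lone events, their inserts, the partner events and the event of the largest lone allele fall outside it and were named after their values were seen. The members and lists were chosen with earlier results of these data known. On simulated lists in the same notation, with losses that all reached the cut, site, sides and insert were read back for 100% of 2000 events. That checks how the list was read, not where a caller places events. Python 3.11.15, numpy 2.4.6 and scipy 1.17.1 were used.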

Additional observations from a re-analysis of the deposited data

How the results depend on the processing

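Of 88 values recomputed over 10 results and 10 settings, 29 stayed within the interval of the reported value, 55 left it and 4 changed sign. The causes were not tested, beyond the fewer events that a setting keeps.

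With alleles of 2 or more UMIs, 6.01% of alleles held a member, the median loss was 5 bases (difference to clean deletions 1), 40.2% had 1 inserted base, purines were 53.7% (differences of -28.2 points to insertions and -18.2 to joins) and 17.9% of distinct events recurred. With 5 or more UMIs these were 4.85%, 4 bases (difference -1, a change of sign), 40.7%, 50% (-33.7 and -23.7 points) and 3.92%, with 27.8% lost on both sides and 66.7% shorter. Weighted by UMIs, 5.02% held a member, and the purine differences were -27.1 and -18.1 points.

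With lone events only, in the compared classes too, 4.32% of alleles held a member, the median loss was 3 bases (difference 0), 21.4% lost both sides, 39.8% had 1 inserted base, purines were 64.9% (-16.3 and -10.5 points), 60.2% were shorter and 19.9% recurred. With losses beside the cut only, 6.52% held a member, the median was 5 (difference 1), 43.4% lost both sides, 39.9% had 1 inserted base, and the purine difference to insertions was -27.1 points. Without the leading event of each site, these were 6.34%, 5 (difference -1, a change of sign), 32.9% with 1 inserted base, 71.0% shorter and -20.8 points. With alleles of at most 5 events they were 5.55%, 4 (difference 0), 27.7% on both sides, 59.1% purines, 69.3% shorter and -21.8 points.

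With each distinct event counted once, the median was 5 (difference -5, a change of sign), 70.4% were shorter, and the purine differences were -6.09 and -5.83 points. With sites weighted equally the median was 7.75 and 39.9% lost both sides. With the middle base of 3-base inserts, an alternative chosen after seeing the data, the purine differences were -30.0 points to insertions and 0.938 to joins, a change of sign. No paired analysis was possible because 1 library was analysed here. It holds 1100 members, and sites 3, 4, 5, 6, 7 and 8 hold 12 to 29 lone ones each, which limits their shares.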
